A study of Homo sapiens with 20 samples.

Results

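PKIB and CHCHD2 are 2 protein-coding genes whose transcripts were more abundant in both DIGIT knockout clones than in unedited cells after 4 days of endoderm differentiation. They were taken as selected on those day 4 values, out of 16792 features with enough reads to test and 54435 features counted. The choice was made with earlier results of these data known, and whether day 0 values had a part in it is not known. The day 0 p-values of the 2 genes are to be read with that limit. The question followed here is whether the difference is already there in undifferentiated cells, and how each gene behaves in all 6 groups. Poly(A) RNA was sequenced from H1, an established human embryonic stem cell line. The WT group is unedited H1. KO1 and KO2 carry a label of DIGIT knockout (DIGIT is a noncoding RNA gene). Each of these lines is 1 clone, so what is particular to a clone and what the edit does cannot be told apart within it. No library is labelled as a clone without the edit. An effect of cloning shared by both clones therefore cannot be told apart from the edit either. At day 0 the cells were in mTeSR1, a medium that keeps them undifferentiated. At day 4 they had been in RPMI with B27 supplement and 50 ng/ml Activin A, a TGF-beta family ligand that drives endoderm formation. Each line and day has 2 libraries, 12 in all, and nothing in the labels says that the replicates were separate cultures, so p-values measure only the spread between these libraries. DIGIT itself was not analysed here, so the knockout rests on the labels.

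PKIB codes for a member of the PKI family, small proteins that bind the catalytic subunit of protein kinase A (PKA) in place of a substrate and block it. PKA is released by cyclic AMP and phosphorylates, among others, the transcription factor CREB. CHCHD2 codes for a small protein with paired cysteine motifs that sits in the mitochondrial intermembrane space, where it is tied to the MICOS complex and the respiratory chain, and it has also been described in the nucleus as a partner of the transcription factor RBPJ. Its closest relative is CHCHD10.

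The sequences just upstream of the annotated starts of both genes are shown because they hold a feature that the choice of genes did not use, an arm of the cyclic AMP response element at which CREB binds. The reference table matched both genes. Each sequence is the 250 bases before a start, from RefSeq on GRCh38.p14, whereas the reads were aligned to hg19. Capitals mark TGACG or its reverse complement. PKIB has 3 annotated starts on chromosome 6, and the outermost and the next are printed.
PKIB, first start, chr6:122471671-122471920, plus strand: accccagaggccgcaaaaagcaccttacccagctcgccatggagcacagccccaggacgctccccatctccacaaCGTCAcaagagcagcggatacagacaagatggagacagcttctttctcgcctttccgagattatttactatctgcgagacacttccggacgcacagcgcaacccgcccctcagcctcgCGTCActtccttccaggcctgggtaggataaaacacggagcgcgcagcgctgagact
PKIB, second start, chr6:122610155-122610404, plus strand: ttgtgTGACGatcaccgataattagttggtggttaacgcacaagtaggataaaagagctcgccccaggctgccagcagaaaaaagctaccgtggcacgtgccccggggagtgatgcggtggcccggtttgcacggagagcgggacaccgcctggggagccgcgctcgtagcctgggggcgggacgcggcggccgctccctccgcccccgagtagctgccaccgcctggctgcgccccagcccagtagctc
CHCHD2, chr7:56106477-56106726, minus strand: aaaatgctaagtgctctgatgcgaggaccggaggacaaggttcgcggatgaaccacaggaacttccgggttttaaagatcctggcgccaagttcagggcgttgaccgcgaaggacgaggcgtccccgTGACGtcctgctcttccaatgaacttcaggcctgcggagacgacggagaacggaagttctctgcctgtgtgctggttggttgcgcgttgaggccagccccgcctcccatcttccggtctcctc

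On either strand, TGACG occurred 2 times before the first PKIB start, 1 time before the second, 0 times before the third and 1 time before the CHCHD2 start. Among 35114 promoter windows of the same length, 21.2% held it at least once and 4.76% held it 2 or more times. The whole element TGACGTCA, which contains that arm, was in none of the 4 windows and in 1.65% of all. The RBPJ core TGGGAA, searched on both strands, was also in none of the 4 and in 20.8% of all. The first and second PKIB windows held 18 and 24 CG dinucleotides and the CHCHD2 window 21, against a median of 11 over all windows, while the third PKIB window held 0. The counts give PKIB as 1 feature, so reads cannot be assigned to a start.

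One replicate pair stood apart. Between the KO1 libraries of day 0 the chi-square over features was 22 per feature, where the other pairs gave 1.91 to 3.94, so day 0 values are given with and without each of them. Total counts per library were 9942016 to 21394547, and 3 counts, the floor used here, equal 0.133 to 0.294 CPM (counts per 1e+06 reads after TMM scaling, which balances the libraries' composition). The members lay well above it, with 130 to 2108 counts per library for PKIB and 102 to 509 for CHCHD2. In WT the 6 pluripotency markers, POU5F1 and SOX2 among them, summed to 5590 to 5690 CPM at day 0 and 3610 to 3730 at day 4, and the 7 definitive endoderm markers to 6.22 to 6.49 and 4480 to 4880 CPM. The pluripotency sum at day 0 was 5310 to 5580 CPM in KO1 and 5550 to 5580 in KO2. DNMT3B (2230, 1830 and 2040 CPM for WT, KO1 and KO2) and NANOG had lower means in both clones, SOX2 and LIN28A higher ones. POU5F1 and DPPA4 were higher in KO1 and lower in KO2. The endoderm sum at day 0 was 6.48 to 9.08 CPM in KO1 and 6.56 to 13 in KO2. Within it GATA4 was lower in both clones, and CXCR4 and CER1 were lower in KO1 only. At day 4 the pluripotency sum was 3370 to 3490 CPM in KO1 and about 4570 in KO2. Of these markers LIN28A went the other way in KO2, with means of 1700 CPM for WT and 1570 for KO2. Most of the endoderm sum at day 4 was CER1, with means of 4030 CPM for WT, 4490 for KO1 and 866 for KO2. The other 6 endoderm markers had lower means in both clones than in WT, such as CXCR4 (152, 55.6 and 8.56 CPM), SOX17 (138, 106 and 16.5) and GATA6 (186, 175 and 27.7). Most of the sum of 5 fibroblast markers at day 4 was COL1A2, with means of 108, 224 and 94.4 CPM in the same order. The part of these markers in the day 0 and day 4 values below was not tested.

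PKIB was already higher in both clones at day 0. It was 22.95 and 23.17 CPM in the WT libraries, 75.1 and 93.8 CPM in KO1, and 74.8 and 84.8 CPM in KO2. Every clone library lay above every WT library, and the 2 clones overlapped each other. The mean of the clones was 3.56-fold above WT (log2 1.83, SE 0.11, adjusted p = 4.8e-07 in edgeR's quasi-likelihood test over all features, 4 of 4 clone libraries higher). Each clone passed by itself, KO1 at log2 1.87 (SE 0.12, adjusted p = 7.14e-07) and KO2 at log2 1.79 (SE 0.12, adjusted p = 2.68e-06), though both share the same WT libraries. These p-values, and those of CHCHD2 below, carry the limit on the choice of genes given above. In cultures measured in bulk, more cells with the transcript and more transcript per cell cannot be told apart.

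CHCHD2 was also higher in both clones at day 0, by a smaller step. It was 12.5 and 11.2 CPM in WT, 23.3 and 22.6 CPM in KO1, and 22.1 and 24.7 CPM in KO2. Again the clone libraries did not overlap those of WT and the clones overlapped each other. The mean of the clones was 1.96-fold above WT (log2 0.97, SE 0.12, edgeR adjusted p = 0.00128, 4 of 4 clone libraries higher). KO1 was higher by log2 0.96 (SE 0.13, adjusted p = 0.00381) and KO2 by log2 0.98 (SE 0.14, adjusted p = 0.00724).

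The CHCHD2 call rested on few libraries although its size hardly moved. Over all 20 alternative settings the day 0 log2 fold change of the clone mean was 0.89 to 1.04, with adjusted p = 4.7e-10 to 0.132. The call was lost only without WT day 0 replicate 2 (log2 0.89, adjusted p = 0.132). For KO1 it was also lost without WT day 0 replicate 1 (adjusted p = 0.0545), without WT day 0 replicate 2 (0.255) and in a fit of only the 4 libraries compared (0.103). For KO2 it was lost without either WT day 0 library (0.0874 and 0.213) or either KO2 day 0 library (0.0667 and 0.151). PKIB passed in all 20 settings, at log2 1.74 to 1.91 and adjusted p = 3.6e-61 to 0.0336. Without KO1 day 0 replicate 1 the clone means were log2 1.91 for PKIB and 0.96 for CHCHD2, and without KO1 day 0 replicate 2 they were 1.74 and 0.98, each with a lower adjusted p than with all libraries.

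**Figure D1:**
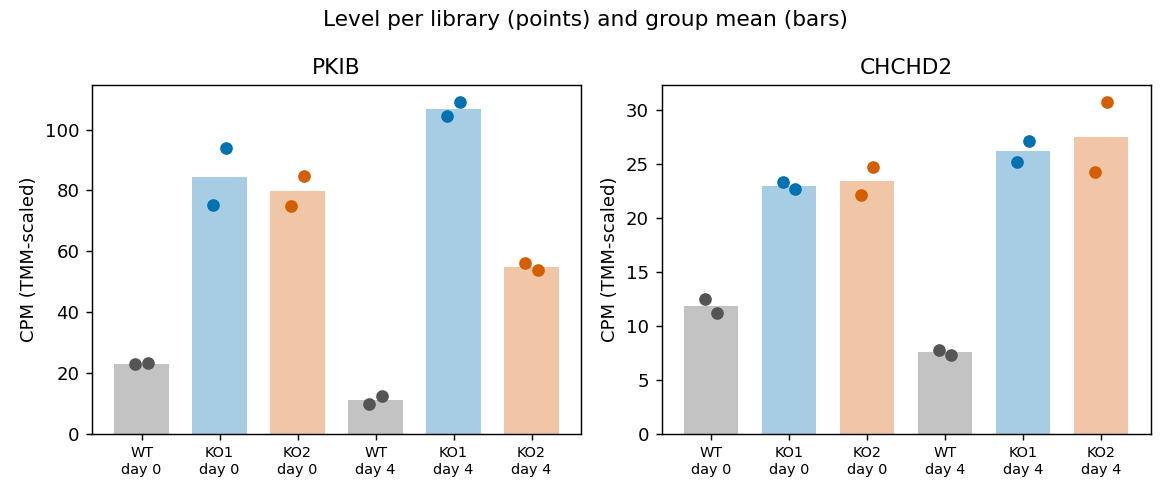
CPM of PKIB (left) and CHCHD2 (right) in each of the 12 libraries (points) with the mean of each group (bars), by line and day. All clone libraries lie above all WT libraries of either day, PKIB at 53.7 CPM or more against 23.2 or less and CHCHD2 at 22.1 or more against 12.5 or less.

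At day 4 the values that chose the genes were as follows, as a description with no test. PKIB was 9.92 and 12.4 CPM in WT, 104 and 109 CPM in KO1, and 56.2 and 53.7 CPM in KO2. The 3 lines did not overlap, with KO1 highest. Relative to WT this was log2 3.25 (SE 0.13) in KO1, log2 2.29 (SE 0.13) in KO2 and log2 2.77 in their mean. CHCHD2 was 7.78 and 7.35 CPM in WT, 25.2 and 27.2 CPM in KO1, and 24.2 and 30.8 CPM in KO2. Both clones stood above WT and overlapped each other, at log2 1.79 (SE 0.14) in KO1, log2 1.87 (SE 0.14) in KO2 and log2 1.83 in the mean. In this contrast 11.3% of all tested features were called higher in the clone mean, 10.5% in KO1 (9.42% lower) and 13.5% in KO2, and 0.274% were higher by at least log2 1 in both clones. The excess of the day 4 difference over the day 0 difference was log2 0.94 (SE 0.16) for PKIB and log2 0.86 (SE 0.18) for CHCHD2, which includes the chosen contrast and is likewise not tested (6.36% of all features were called for a higher and 7.27% for a lower excess).

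From day 0 to day 4 the genes went down in WT and differed between the clones. These changes use the day 4 libraries on which the genes were selected, and a low WT value or a high clone value at day 4 was favoured by that choice, so they are described with no test. In WT the log2 change was −1.04 for PKIB (SE 0.14) and −0.64 for CHCHD2 (SE 0.15), with both day 4 libraries below both day 0 libraries for each gene, and 25.4% of all features were called lower. In KO1 PKIB changed by log2 0.34 (SE 0.11), and by 0.19 or 0.51 without KO1 day 0 replicate 1 or 2, where 29.1% of all features were called higher. In KO2 PKIB changed by log2 −0.54 (SE 0.11), where 25.7% of all features were called lower and 25% higher. CHCHD2 changed by log2 0.19 in KO1 (95% interval −0.11 to 0.49) and by log2 0.24 in KO2 (95% interval −0.07 to 0.55).

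Of the 4 comparisons of clone with clone at a day, PKIB at day 4 was the one that passed. Those at day 4, and those of the day changes, use the day 4 clone libraries on which the genes were selected. That choice asked for both clones above WT and did not use the difference between the clones. At day 0 KO2 against KO1 was log2 −0.08 for PKIB (95% interval −0.36 to 0.19, adjusted p = 0.944) and log2 0.02 for CHCHD2 (95% interval −0.28 to 0.33, adjusted p = 0.987). At day 4 PKIB was lower in KO2 than in KO1 by log2 −0.96 (SE 0.11, edgeR adjusted p = 1.7e-05), where 14.3% of features were lower. CHCHD2 at day 4 was log2 0.07 (95% interval −0.23 to 0.38, adjusted p = 0.718). The day change of PKIB itself differed between the clones, by log2 −0.88 (SE 0.16, adjusted p = 0.00209), where 6.52% of features were called in that direction and 3.92% in the other, and that of CHCHD2 was log2 0.05 apart (95% interval −0.38 to 0.48, adjusted p = 0.907).

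**Figure D2:**
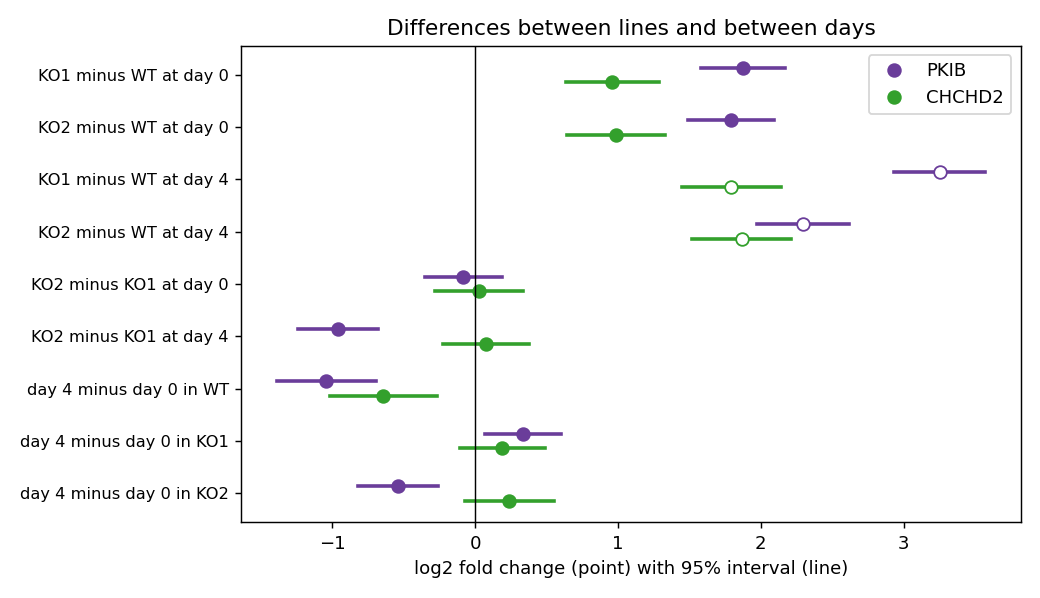
Log2 fold changes of PKIB and CHCHD2 (points) with 95% intervals (lines) for clones against WT, clone against clone and day 4 against day 0. Open points mark the day 4 contrasts used to choose the genes. The intervals against WT lie above 0 at day 0, and PKIB in KO2 against KO1 lies below 0 at day 4.

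The levels of PKIB ran from KO1 at day 4 (106.8 ± 3.4 CPM, SD, n = 2) through KO1 at day 0 (84.5 ± 13.2), KO2 at day 0 (79.8 ± 7.06), KO2 at day 4 (55 ± 1.72) and WT at day 0 (23.1 ± 0.154) to WT at day 4 (11.2 ± 1.74). Of the neighbours in that order, KO1 and KO2 at day 0 did not differ beyond their spread, and the libraries of the others did not overlap. For CHCHD2 the order was KO2 at day 4 (27.5 ± 4.63 CPM, SD, n = 2), KO1 at day 4 (26.2 ± 1.39), KO2 at day 0 (23.4 ± 1.82), KO1 at day 0 (23 ± 0.495), WT at day 0 (11.9 ± 0.892) and WT at day 4 (7.56 ± 0.307). The 2 clones overlapped at each day, while the libraries of KO1 at day 4 and KO2 at day 0, of KO1 and WT at day 0, and of WT at both days did not overlap.

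Few features were called at day 0, and these 2 were among them. In edgeR's test 15 of 16792 features (0.0893%) were called higher in the clone mean before differentiation, 10 (0.0596%) in KO1 and 9 (0.0536%) in KO2. More were called lower, 32 (0.191%) in the clone mean, 30 (0.179%) in KO1 and 15 (0.0893%) in KO2. Both members were among the 15, with PKIB in position 30 and CHCHD2 in position 154 of all features by fold change. The counts of higher features moved with single libraries: the 15 became 787 without KO1 day 0 replicate 1, 66 without KO1 day 0 replicate 2, 8 without either KO2 day 4 library, 5 and 6 without KO2 day 0 replicate 1 or 2, and 2 and 1 without WT day 0 replicate 1 or 2. The KO1 count became 1939 without KO1 day 0 replicate 1 and 1 without either WT day 0 library. The KO2 count became 69 without either KO1 day 0 library and 1 without either library of WT or KO2 at day 0.

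Called higher in each clone at day 0 were 6 features (0.0357%). Besides the 2 members they included S100A6, a calcium-binding protein gene, CHGA, which codes for the secretory granule protein chromogranin A, and LEPREL1, a collagen prolyl hydroxylase gene, at log2 1.20, 1.04 and 0.64 in the clone mean (edgeR adjusted p = 0.00509, 0.00137 and 0.0125). These 3 are named after their values were seen. None of the 3 was called without WT day 0 replicate 1 (adjusted p = 0.0724, 0.0724 and 0.358) or without WT day 0 replicate 2 (0.342, 0.125 and 0.194), and LEPREL1 was also not called without KO2 day 0 replicate 1 (0.0634) or 2 (0.0534). With only the libraries compared LEPREL1 was not called (0.0715), and with both clones pooled as 1 group S100A6 (0.269) and LEPREL1 (1) were not. At day 4 S100A6 was log2 1.13 in KO1 and 0.13 in KO2 against WT, CHGA 0.29 and 0.60, and LEPREL1 0.09 and −1.95.

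At day 4 633 features (3.77%) were called higher in each clone. The features called higher in both clones at both days were 2 (0.0119%), PKIB and CHCHD2. The day 4 part is the one taken to have chosen them, and whether day 0 had a part is not known. The 6 at day 0 became 1 without either library of WT or KO2 at day 0, and 49 without KO1 day 0 replicate 1. The 2 at both days became 1 without any of those 4 libraries and 4 without KO1 day 0 replicate 1. PKIB was called in both clones at day 0 in all 19 settings that fit each clone. With a smallest size of log2 1 in all 4 contrasts PKIB alone remained (0.00596%), and CHCHD2 lay just outside at log2 0.96 and 0.98 at day 0. In the other direction 10 features (0.0596%) were called lower by at least log2 1 in all 4 contrasts, among them the protocadherin gene PCDHB5 and the noncoding RNA gene MEG3.

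**Figure D3:**
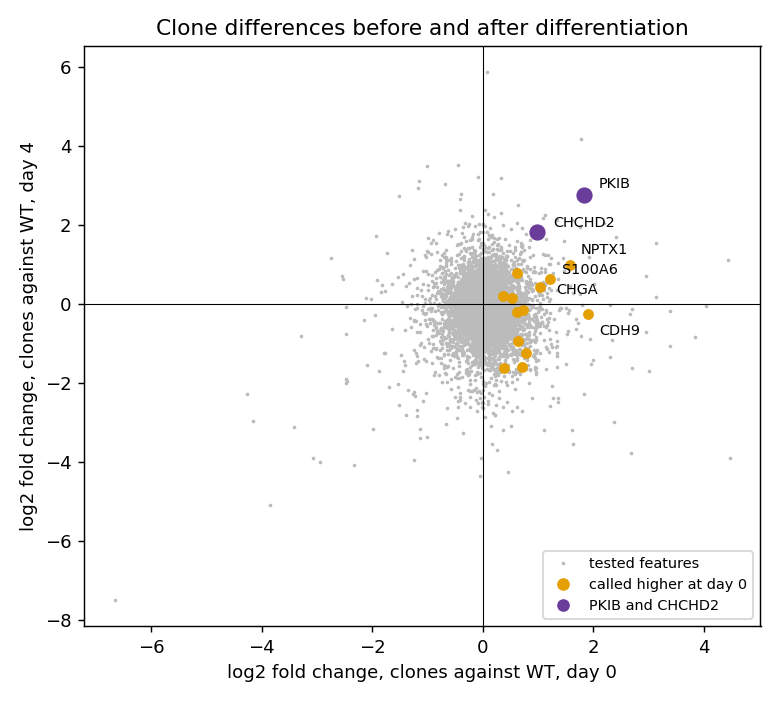
Log2 fold change of the clone mean against WT at day 0 (x) and day 4 (y) for all 16792 tested features (grey), with the features called higher at day 0 in orange and PKIB and CHCHD2 in purple. The members lie upper right, at log2 1.83 and 2.77 and at log2 0.97 and 1.83, where the y axis is the contrast that chose them.

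The genes of the pathways around the members were followed in 8 lists. Of 94 tested genes on PKA, cyclic AMP, CREB and the surroundings of CHCHD2, with the members left out, 0 were called at day 0 by edgeR and 0 by DESeq2, and 13 had an unadjusted p under 0.05. With 0.0893% of all features higher and 0.191% lower at day 0, the 0 calls do not set the lists apart from other genes. How many of all features had an unadjusted p under 0.05 was not counted. The 13, and the like counts below, therefore have no share to be read against. The median log2 fold change of the 94 genes was 0.00 where that of all features was also 0.00. Without KO1 day 0 replicate 1, when 787 features were called higher, 6 of the 8 lists gained at least 1 call. At day 4, 14 of the 94 were higher and 6 lower in the clone mean, with a median of log2 0.04 against 0.01 for all features, where 11.3% of all features were higher and 12.6% lower.

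Neither of the other PKI family genes was called higher in the clone mean at either day. PKIA was 28.8 ± 4.26 CPM in WT at day 0, beside 30.5 ± 3.88 in KO1 and 29.3 ± 1.85 in KO2 (SD, n = 2), and 20 ± 1.13, 21 ± 1.09 and 27.9 ± 1.39 at day 4. PKIG was 17.6 ± 1.12, 19.6 ± 0.952 and 19.9 ± 0.0474 CPM at day 0, and 40.1 ± 0.861, 40.2 ± 1.92 and 24.2 ± 2.22 at day 4. At day 4 PKIG was low in KO2 and at the WT level in KO1, and its clone mean was lower by log2 −0.36 (edgeR adjusted p = 0.00656, and 0.0669 without WT day 4 replicate 1). Of the 10 tested PKI and PKA subunit genes besides PKIB, 2 were higher and 1 lower at day 4, with a median of log2 −0.01 (4 and 2 without either KO1 day 0 library). In KO1 by itself 1 of the 10 was higher and 0 lower, beside 10.5% and 9.42% of all features. In KO2 by itself 4 were higher, PKIA among them, and 2 lower, beside 13.5% and 14.5% of all features. In the clone mean the catalytic subunit gene PRKACB was higher by log2 0.45 (edgeR adjusted p = 0.00113), at 46.3 ± 0.81, 58.3 ± 4.33 and 68.3 ± 0.0293 CPM in WT, KO1 and KO2. The regulatory subunit gene PRKAR2B was higher by log2 0.30 (adjusted p = 0.0161), at 20.9 ± 0.0307, 21 ± 1.85 and 31.6 ± 0.0766 CPM, so that the KO1 libraries lay about WT and those of KO2 above it. The PRKAR2B call was lost without WT day 4 replicate 1 (adjusted p = 0.129) or 2 (0.114), KO1 day 4 replicate 2 (0.0753) or KO2 day 4 replicate 1 (0.0549), and with both clones pooled as 1 group neither PKIG (0.324) nor PRKAR2B (0.241) was called.

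In the clone mean at day 4, calls among genes that make or break down cyclic AMP were near the share of all features, 11.3% higher and 12.6% lower. Of 20 tested adenylate cyclase and phosphodiesterase genes 3 were higher and 3 lower, with a median of log2 0.08 (7 higher without either KO1 day 0 library, 1 higher without WT day 4 replicate 1). In KO1 by itself 5 of the 20 were higher and 3 lower, beside 10.5% and 9.42% of all features. In KO2 by itself 4 were higher and 4 lower, beside 13.5% and 14.5% of all features. In the clone mean the phosphodiesterase genes PDE4D and PDE3B were higher by log2 0.93 and 0.42 (edgeR adjusted p = 0.000682 and 0.00261). PDE10A and the cyclase gene ADCY6 were lower by log2 −0.92 and −0.50 (0.000155 and 0.000907). The call of PDE3B was lost without WT day 4 replicate 1 (0.0581). Of 9 genes for proteins that anchor PKA, 3 were higher and 0 lower (4 had an unadjusted p under 0.05, and DESeq2 called 3), led by AKAP12 at log2 0.81 (adjusted p = 8.25e-07) and AKAP5 at log2 0.63 (0.02). The AKAP5 call was lost without WT day 4 replicate 1 (0.235), KO1 day 4 replicate 2 (0.069) or KO2 day 4 replicate 2 (0.0548), and with both clones pooled as 1 group (0.0775).

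The CREB lists were counted against the same 11.3% and 12.6% of all features. Of 8 CREB factors and coactivators, ATF1 was higher by log2 0.43 (edgeR adjusted p = 0.00286) and the coactivator gene CRTC1 lower by log2 −0.39 (0.0289) at day 4. The ATF1 call was lost without WT day 4 replicate 2 (0.0933). That of CRTC1 was lost without WT day 4 replicate 1 (0.373), KO1 day 4 replicate 1 (0.0872) or 2 (0.0503) or KO2 day 4 replicate 1 (0.08), in DESeq2 (0.0542) and with both clones pooled (0.0767). Of 11 CREB target genes FOS alone was called in the clone mean at day 4, higher by log2 0.56 (0.00602), which was lost without either WT day 4 library (0.0562 and 0.0754), and the median of the list was log2 −0.12. Without either KO1 day 0 library 3 of the 8 factors and 2 of the 11 targets were higher. In KO1 alone 2 factors were higher and 0 lower, and 0 targets were called, beside 10.5% of all features higher and 9.42% lower. In KO2 alone 1 factor was higher and 1 lower, and 3 targets were higher and 1 lower. Of all features 13.5% were higher and 14.5% lower in KO2.

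Genes for other proteins of the CHCHD2 family came next. At day 4, 11.3% of all features were higher and 12.6% lower in the clone mean. CHCHD10, the closest relative of CHCHD2, stood at 22.5 ± 3.25 CPM for WT, 21.6 ± 2.23 for KO1 and 22 ± 0.763 for KO2 at day 0 (SD, n = 2). At day 4 it was 15.6 ± 3.04, 14.7 ± 0.0344 and 12.8 ± 1.89 CPM. Each clone overlapped WT at both days. Of 21 tested genes for proteins with the same cysteine motifs, 1 was higher and 1 lower at day 4, with a median of log2 −0.08 (2 and 3 without either KO1 day 0 library). CHCHD3, a MICOS subunit gene, was higher by log2 0.32 (edgeR adjusted p = 0.00239) and NDUFB7, a complex I subunit gene, lower by log2 −0.29 (0.0393). The NDUFB7 call was lost without any 1 of the 6 day 4 libraries (0.0617 to 0.188), in DESeq2 (0.0534) and with both clones pooled (0.141). Of 8 genes of MICOS and of import into the intermembrane space, 0 were called at day 4 by edgeR or DESeq2 and 0 had an unadjusted p under 0.05. Of 7 genes for partners and the target of CHCHD2, 3 were higher at day 4 (1 without WT day 4 replicate 1), led by RBPJ at log2 0.36 (0.00147) and the inner membrane protein gene GHITM at log2 0.33 (0.00116). RBPJ was not called without WT day 4 replicate 1 (0.0567) or with both clones pooled (0.0718).

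Genes next to the members on their chromosomes were compared with them. The 3 nearest tested genes on each side of PKIB were GJA1, HSF2 and SERINC1 on one side and FABP7, SMPDL3A and CLVS2 on the other. Those of CHCHD2 were CCT6A, SUMF2 and PHKG1, and NUPR1L, ZNF479 and GUSBP10. At day 0, 0 of these 12 were called by edgeR or DESeq2 and 0 had an unadjusted p under 0.05, with log2 fold changes of −0.06 to 0.36. So few features were called at day 0 (0.0893% higher, 0.191% lower) that 0 of 12 does not set the neighbours apart. At day 4, with 11.3% of all features higher and 12.6% lower, 0 of 6 around PKIB were higher and 3 were lower (5 had an unadjusted p under 0.05), SERINC1 at log2 −0.27, SMPDL3A at −0.999 and CLVS2 at −1.83 (edgeR adjusted p = 0.0186, 0.0119 and 1.39e-05). CLVS2 stood at 8.36 ± 1.34 CPM for WT, 6.85 ± 0.932 for KO1 and 0.783 ± 0.313 for KO2 at day 4 (SD, n = 2). SERINC1 stood at 159.9 ± 4.15, 150.4 ± 9.08 and 116.7 ± 6.27 CPM, so for both KO2 lay farther below WT than KO1 did. Around CHCHD2 the chaperonin subunit gene CCT6A was higher by log2 0.34 (0.00194) and SUMF2 lower by log2 −0.43 (0.00159). The SERINC1 call was lost without WT day 4 replicate 1 (0.14) or 2 (0.064), KO1 day 4 replicate 2 (0.0741) or KO2 day 4 replicate 2 (0.0734), that of SMPDL3A without WT day 4 replicate 2 (0.154) or KO2 day 4 replicate 2 (0.0508), and that of CCT6A without WT day 4 replicate 1 (0.0743). With both clones pooled SERINC1 (0.193) and CLVS2 (0.268) were not called.

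**Figure D4:**
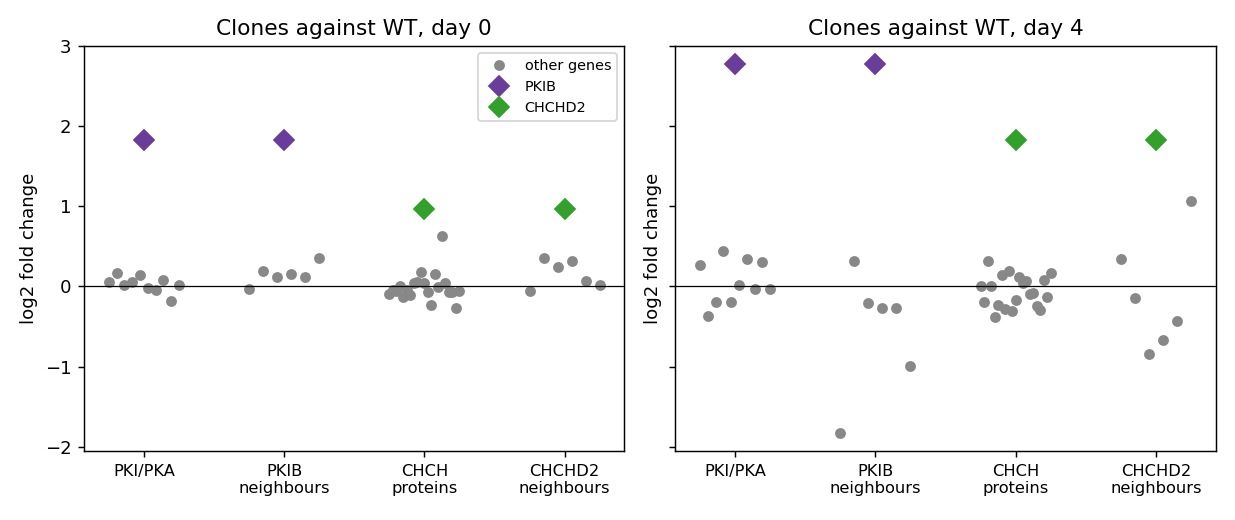
Log2 fold change of the clone mean against WT at day 0 (left) and day 4 (right) for genes of the PKI and PKA list, the 6 neighbours of PKIB, genes for CHCH domain proteins (the paired cysteine motifs) and the 6 neighbours of CHCHD2 (grey points), with PKIB and CHCHD2 as diamonds. At day 0 the members lie above the genes of their lists and their neighbours.

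The likeness of the 2 genes over all libraries was partly set by their choice, since both were selected as high in the clones at day 4. Over the 12 libraries Pearson's r of their log2 CPM was 0.939 and Spearman's rho 0.72, a description over libraries that share lines and days. Among 15429 gene symbols PKIB was the one most like CHCHD2, and CHCHD2 was in position 2 for PKIB, after CACNA1B, a calcium channel gene (r = 0.949). CACNA1B stood at 15.5 ± 1.48 CPM for WT, 22.2 ± 2.08 for KO1 and 19.2 ± 0.204 for KO2 at day 0, and 9.81 ± 1.35, 23.4 ± 0.803 and 19.4 ± 0.784 at day 4 (SD, n = 2), with clone levels above WT at both days. Also among the 5 most like PKIB were FIBIN and the kinase gene ABL1 (r = 0.916 and 0.911), and for CHCHD2 the next were LOXL3, CACNA1B, C19orf33 and SLC25A38 (r = 0.920, 0.908, 0.902 and 0.893). FIBIN lay between 0.135 and 0.78 CPM and C19orf33 between 0.543 and 2.93 CPM as group means, so few reads stand behind them. When ranked by Spearman's rho instead, 0 of the 5 genes most like each member were the same.

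Marker sums of other cell types were compared between lines at day 0, when the members first differed. The 7 neuroectoderm markers summed to 39.8 to 43 CPM in WT, 45.1 to 52.1 in KO1 and 47.1 to 52.3 in KO2, with NEUROG2 at 0 in WT and KO2. Most of the sum of 7 mesoderm markers was KDR, at 211, 284 and 250 CPM. TBX6 (2.21, 3.77 and 3.25) and PDGFRA (5.06, 5.18 and 5.28 CPM) also had higher means in the clones. FOXF1 (1.12, 0.43 and 0.671), MEOX1 (0.525, 0.36 and 0.432) and MESP1 (0.383, 0.343 and 0.187 CPM) had lower means in the clones. MSGN1 (0.181, 0.288 and 0.147 CPM) was higher in KO1 and lower in KO2. MEOX1, MESP1 and MSGN1 had too few reads to be tested. The 3 mesendoderm markers summed to 0.706 to 1.07, 1.47 to 1.65 and 1.69 to 2.06 CPM. Trophoblast markers, 6 in number, summed to 11.9 to 14.3, 12.9 to 13.9 and 12.3 to 13.8 CPM, with CGA at 0 in KO1, and 5 fibroblast markers, mostly COL1A2, to 227 to 254, 239 to 265 and 255 to 263 CPM, with DCN at 0 in WT. Their part in the PKIB and CHCHD2 values was not tested.

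CHCHD2 has 11 pseudogenes in the reference table, none of which is a feature of the files, and 19.3% to 22.2% of each library was set aside for low mapping quality. Reads shared with such copies may be missing from or wrongly counted in CHCHD2, so its absolute level is uncertain. Whether they also alter the CHCHD2 differences between lines was not tested. PKIB overlaps the noncoding gene LOC124901391, and the strand setting of the counting is not given in the sources used here, so reads of both may be mixed.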

How the data were processed

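The deposited files hold raw read counts per feature, 1 file for each of 12 poly(A) libraries. The submitters' processing notes name Bowtie2 2.1.0, HTSeq 0.6.1 and hg19. The kit was stranded, per the labels' protocols, and these sources name neither the annotation nor the strand setting of the counting. The 8 ChIP-seq samples were not used here. The members and gene lists were chosen with earlier results of these data known.

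Lines that name no gene were left out: 29.2% to 30.5% of a library fell in no feature and 1.17% to 1.41% was ambiguous. Features passing filterByExpr were scaled with TMM (factors 0.937 to 1.05) and fitted with edgeR 4.0.16 in R 4.3.3 as 6 groups over all 12 libraries. KO means both clones at equal weight. Adjusted p values are Benjamini-Hochberg over 16792 features, with a threshold of 0.05. The SE is the fold change divided by the root of F, and 95% intervals use 6 residual degrees of freedom. Log2 CPM has a prior count of 2. DESeq2 1.42.0 was an alternative. Of the tested features 15468 matched the reference table, which was used for names and neighbours. On simulated counts with 16444 features the clone mean against WT at day 0 recovered 97% of planted 2-fold and 100% of 4-fold changes. Of the calls, 7.51% were false, and for KO1 against WT at day 0 9.68% were. Both rates lie above the one set by the 0.05 threshold. Changes were planted only in features with a mean of at least 5 CPM. Each feature had the same spread in all groups, so the wider spread between the KO1 day 0 libraries was not simulated. The recovery in the real libraries may therefore be lower. Named genes are the members, the PKI and PKA genes and CHCHD10, the 2 largest calls each way of each list, the 3 nearest neighbours on a side and the 5 most alike genes, of which some items are not reported here. Figures were drawn with matplotlib 3.10.9.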

Additional observations from a re-analysis of the deposited data

Results flagged for a closer look

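The clones differed in PKIB at day 4, KO2 being lower than KO1 by log2 −0.96 (edgeR adjusted p = 1.7e-05, 2 of 2 KO2 libraries below both KO1 libraries). The change of PKIB from day 0 to day 4 also differed between the clones, by log2 −0.88 (adjusted p = 0.00209), at log2 0.34 in KO1 and −0.54 in KO2. Both are flagged because a test of the difference between the clones passed. Both use the day 4 clone libraries on which PKIB was selected, though that choice did not use the difference between the clones. The cause was not tested. Groups of 2 libraries are too small to look for single libraries far from the rest.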

How the results depend on the processing

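Leaving out single libraries moved the day 0 values of the members little. The clone mean against WT ranged over log2 1.74 to 1.91 for PKIB and 0.89 to 1.04 for CHCHD2 (lowest without WT day 0 replicate 2), KO1 against WT over 1.70 to 2.03 (2.025) and 0.88 to 1.03, and KO2 against WT over 1.69 to 1.88 (1.875) and 0.90 to 1.06. Differences near 0 changed sign: KO2 against KO1 at day 0 ranged over −0.24 to 0.086 for PKIB (0.086 without KO1 day 0 replicate 2, 0.0018 without KO2 day 0 replicate 1) and −0.060 (without KO2 day 0 replicate 2) to 0.10 for CHCHD2. For CHCHD2 the same at day 4 ranged over −0.11 (without KO2 day 4 replicate 2) to 0.23, and the difference of day changes over −0.14 (without KO2 day 4 replicate 2) to 0.21, with −0.03 without KO2 day 0 replicate 1 and −0.0020 without KO1 day 4 replicate 1. The day change of PKIB in KO1 ranged over 0.19 to 0.51 and that of CHCHD2 in KO2 over 0.054 to 0.40. At day 4 the clone mean of PKIB ranged over 2.62 to 2.93, KO1 over 3.10 to 3.42, the excess over day 0 over 0.79 to 1.10, and CHCHD2 in KO2 over 1.68 to 2.01.

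Counts of features called moved more. Over the left-out libraries those higher at day 0 were 1 to 787 for the clone mean, 1 to 1939 for KO1, 1 to 69 for KO2 and 1 to 49 for both, those higher in both clones at both days 1 to 4 and, at log2 1 or more, 1 to 2. Those lower in KO2 than KO1 at day 4 were 1423 to 3272 and in the difference of day changes 625 to 2036. Those higher at day 4 were 637 to 2902 for the clone mean, 758 to 2675 for KO1 and 943 to 3171 for KO2. With no filter beyond 1 count, those higher at day 0 were 124 for the clone mean, 233 for KO1, 60 for KO2 and 38 for both, and at both days 5, or 3 at log2 1 or more (2 at log2 0.58 or more with the usual filter). DESeq2 gave 32, 21 and 17 at day 0, and a filter of 5 CPM gave 8 for the clone mean. With only the libraries compared the counts were 4, 1 and 61 at day 0 and 3055 at day 4, CHCHD2 in KO1 at day 0 was log2 0.96 and not called, and the PKIB day change in KO1 was 0.34. It was 0.25 with upper-quartile factors. With both clones pooled as 1 group the counts for the clone mean were 4 at day 0 and 779 at day 4. The causes were not tested.

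With the replicate block the day 0 clone mean was log2 1.83 for PKIB and 0.97 for CHCHD2, no call of either changed, and 16 features were higher in KO1. Replicate numbers did not pair the libraries: over 15 pairs of groups the correlation of deviations was −0.04 to 0.16 (0.155), over 0.1 in 1. With 2 libraries a group, 3 counts equal 0.133 to 0.294 CPM, and both members lie far above that floor.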
